A study of Mus musculus with 42 samples.

Results

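Pyrimidine and thymidylate synthesis was followed through 9 genes, taken by name from a list of enzymes of new synthesis and salvage: Cad, Dhodh, Umps, Ctps, Ctps2, Tyms, Dut, Tk1 and Uck2. All 9 were found among the 55487 gene identifiers of both count tables, and all 9 passed the filter on low counts in both. The cells came from a mouse acute myeloid leukaemia (AML) driven by the MLL-AF9 fusion oncogene, labelled WT for genotype. Per the labels, leukaemic cells of a terminally ill mouse were expanded in culture with stem cell factor, interleukin-3 and interleukin-6, and they carried GFP and, under the β-actin promoter, luciferase. Male recipients aged 8 to 10 weeks received these cells by vein with no preconditioning, so every group shares this leukaemia and a host with its own blood formation. The samples were viable GFP-positive cells sorted from bone marrow at the point of maximum response to chemotherapy.

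The groups were 7 mice on a diet free of branched-chain amino acids (BCAA-free) given 5+3, 5 on the BCAA-free diet given vehicle, 4 on the standard amino acid diet (AA) given 5+3 and 5 on the AA diet given vehicle. 5+3 was cytarabine at 100 mg/kg daily for 5 days with doxorubicin, 3 mg/kg, once on each of the first 3 days, and vehicle was PBS. Cytarabine is a deoxycytidine analogue that blocks DNA synthesis once it is phosphorylated, and doxorubicin is a topoisomerase II poison. From each mouse came 1 mRNA library, by Smart-seq2, and 1 footprint library, made from the mRNA pieces that ribosomes protect from RNase I. Nothing in the labels ties a mouse to a litter, a cage or a sort day.

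Cells make pyrimidines by building the ring on carbamoyl phosphate and then adding ribose phosphate. CAD, named for its carbamoyl-phosphate synthetase, aspartate transcarbamylase and dihydroorotase activities, starts the route, DHODH oxidises dihydroorotate at the inner mitochondrial membrane, and UMPS makes UMP. CTPS and CTPS2 turn UTP into CTP. Thymidylate synthase (TYMS) methylates dUMP to dTMP with a folate cofactor, and dUTPase (DUT) supplies dUMP while keeping dUTP out of DNA. Thymidine kinase 1 (TK1) and uridine-cytidine kinase 2 (UCK2) recover thymidine, uridine and cytidine. The thymidylate enzymes are known as S-phase genes, and dividing leukaemia cells need the whole route for DNA and RNA.

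Total counts were 30996200 to 70437713 per mRNA library (median 48804734) and 2697092 to 8863472 per footprint library (median 4683466). Levels are given in CPM, read counts scaled to a common library size by TMM factors, and a gene was called where the adjusted p of edgeR's quasi-likelihood test, by the Benjamini-Hochberg method over all genes tested, was under 0.05. The members had 709 to 38330 reads in an mRNA library and 22 to 1806 in a footprint library. The mRNA libraries of 4 mice stood apart from the rest on the first principal component, which held 22.7% of the variance: BCAA-free vehicle replicates 1, 2 and 5 and BCAA-free 5+3 replicate 7. Names of the mice in the AA vehicle group carry a suffix B that the labels do not explain, and if it marks a batch, batch and group cannot be told apart. In bulk samples, fewer cells of a type and less RNA per cell cannot be told apart. Footprints of leukaemia identity markers, such as Hoxa9, Meis1, Kit and Mpo, summed to 4432 to 5480 CPM in BCAA-free 5+3 mice and 4723 to 6768 CPM in BCAA-free vehicle mice, against 6239 to 8077 CPM in AA 5+3 mice and 4358 to 6725 CPM in AA vehicle mice. The 5+3 groups did not overlap between the diets in this sum, in which the most abundant genes weigh most. By the test, 3 of these 10 markers were lower on the BCAA-free diet under 5+3 and 1, Kit, was higher, beside 28.3% of all genes called. Their median log2 change was -0.10. Footprints of mature neutrophil markers summed to 104.5 to 1177 CPM in BCAA-free 5+3 mice and 841.8 to 1405 CPM in BCAA-free vehicle mice, against 697.1 to 2134 CPM in AA 5+3 mice and 996.9 to 1367 CPM in AA vehicle mice. Those of red cell markers summed to 7.36 to 25.8 CPM in BCAA-free 5+3 mice and 112.5 to 215.4 CPM in BCAA-free vehicle mice, against 94.9 to 152.2 CPM in AA 5+3 mice and 32.5 to 145.6 CPM in AA vehicle mice. In red cell markers each BCAA-free 5+3 mouse lay below every other mouse. Footprints of monocyte and macrophage markers summed to 75.3 to 215.3 CPM in BCAA-free 5+3 mice and 249.2 to 356.9 CPM in BCAA-free vehicle mice, against 143.1 to 184.1 CPM in AA 5+3 mice and 315.5 to 698 CPM in AA vehicle mice. No gene of these lists was at 0 in every library of a group, and the part of these cells in the results below was not tested.

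The stretches upstream of Tyms and Umps are shown because these genes had the largest footprint and the largest mRNA change among the 9. They are from RefSeq on GRCm38.p6, the Tyms stretch at chr5:30073646-30073875 and the Umps stretch at chr16:33967039-33967288, both on the minus strand, 5′ to 3′. Each lies before the annotated gene. Capitals mark an E-box (CACGTG) or a GC box (GGGCGG, on either strand).
Tyms: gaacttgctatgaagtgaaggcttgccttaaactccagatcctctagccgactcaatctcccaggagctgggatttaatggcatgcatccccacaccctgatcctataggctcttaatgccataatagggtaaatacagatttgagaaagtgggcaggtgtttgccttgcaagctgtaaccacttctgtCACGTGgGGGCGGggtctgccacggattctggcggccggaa
Umps: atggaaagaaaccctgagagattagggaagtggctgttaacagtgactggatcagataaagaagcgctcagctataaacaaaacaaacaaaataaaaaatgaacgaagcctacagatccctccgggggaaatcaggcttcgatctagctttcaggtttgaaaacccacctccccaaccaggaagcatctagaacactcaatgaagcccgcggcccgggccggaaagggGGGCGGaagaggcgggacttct

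Of the 9 members, 8 had a window of 250 bases before a RefSeq start (Dhodh had none). Such a start can lie inside the annotated gene. The windows of some members, among them Dut, Ctps2 and Uck2, thus lay within the gene and not upstream of it. A GC box was found in 7 of the 11 windows of these members, each from another gene, against 32.7% of all 32851 RefSeq windows of that length. Tyms was the single member whose window held the E-box, which 6.02% of all windows held. The E-box and GC box of Tyms began 61 and 54 bases before the start that ends its 250-base window, separated by a single base. That start lies inside the annotated gene, so the printed stretch, cut at the edge of the gene, is shorter than the window. The letters CCAAT, the NF-Y motif, were found in a window of Ctps2 and in 33.8% of all windows. None of the members' windows held the E2F letters TTTCCCGC, TTTGGCGC, TTTCGCGC or TTTGCCGC, which were found in 1.86% of all windows, or the ATF4 letters TGATGNAA, found in 3.45%. Both strands were searched. A match is a description of the letters and not a site.

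In footprints, Cad was the member with the highest CPM in all 4 groups and Dhodh the one with the lowest, without correction for the length of the coding sequence. Cad averaged 184.7 ± 24.9 CPM in BCAA-free 5+3 mice (SD, n = 7), 138.7 ± 7.21 CPM in BCAA-free vehicle mice (n = 5), 201.5 ± 36.8 CPM in AA 5+3 mice (n = 4) and 140.5 ± 20.5 CPM in AA vehicle mice (n = 5). Dhodh averaged 16.7 ± 2.71, 14.3 ± 1.58, 17.3 ± 0.896 and 13.1 ± 2.83 CPM in the same groups in that order. The other 7 members lay between 25.1 and 101 CPM in all mice. Summed over the 9 members, footprints were 542.9 to 640 CPM in BCAA-free 5+3 mice and 483.4 to 519.8 CPM in BCAA-free vehicle mice, against 586.7 to 686.2 CPM in AA 5+3 mice and 482.8 to 534.2 CPM in AA vehicle mice. The sums of 5+3 and vehicle mice thus did not overlap on either diet, which is a description over the members with Cad as their largest part. Without Cad, the sums overlapped on the BCAA-free diet. Footprints of 30 other nucleotide genes, listed further on, also summed without overlap. They were at 1606 to 1946 CPM in BCAA-free 5+3 mice against 1317 to 1404 CPM in BCAA-free vehicle mice. On the AA diet they were at 1712 to 1755 CPM after 5+3 against 1319 to 1441 CPM under vehicle. How often other sets of genes do so was not counted.

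**Figure D1:**
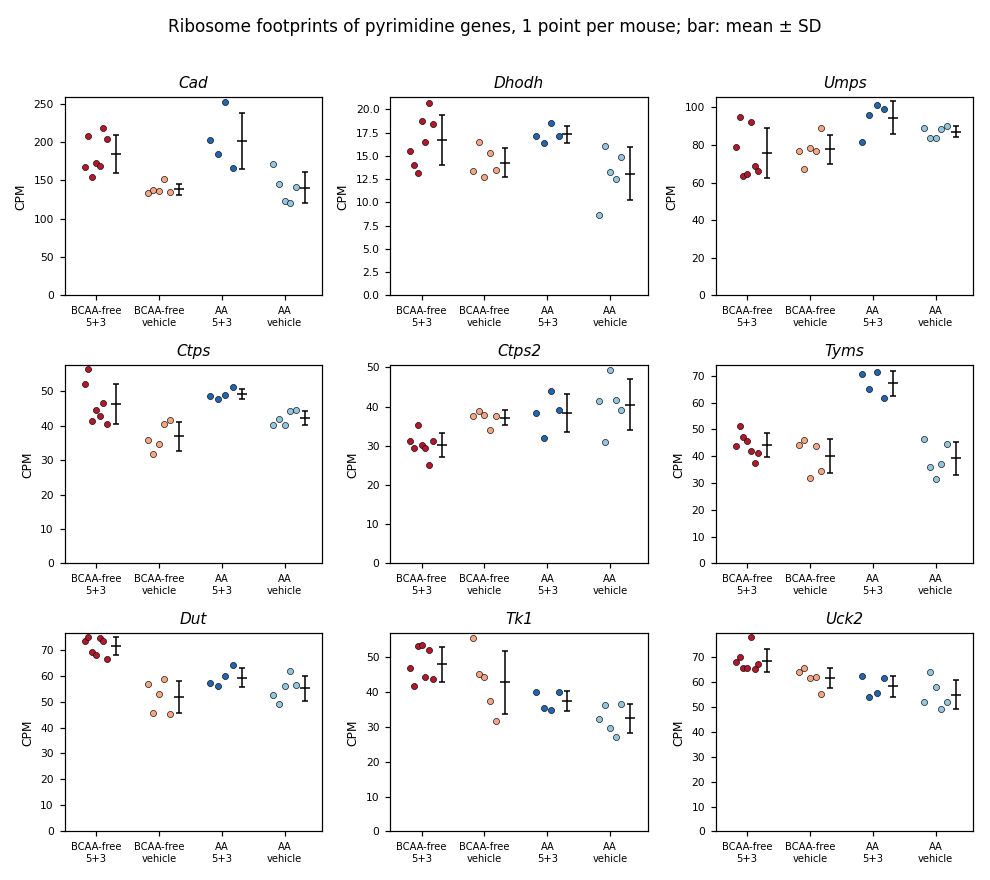
Footprint level in CPM of each of the 9 genes, with 1 point per mouse and bars for the group mean ± SD, in BCAA-free 5+3 (n = 7), BCAA-free vehicle (n = 5), AA 5+3 (n = 4) and AA vehicle (n = 5) mice. Tyms stands at 61.6 to 71.3 CPM in AA 5+3 mice and at 51.4 CPM or below in every other mouse, while Dut is highest in BCAA-free 5+3 mice.

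5+3 against vehicle on the AA diet asked what chemotherapy did to these genes in the cells that remained. Footprints of Tyms and Cad rose, and the other 7 members did not pass the test. Tyms, the enzyme of the last step to dTMP, was 1.72-fold higher after 5+3, and Cad, which opens the de novo route, was 1.44-fold higher. With 2 of 9 called, both higher, the share stood beside 6.61% of the 15723 genes tested in footprints. The members' median log2 change was 0.22, against -0.02 for all genes tested.

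Tyms footprints were 61.6, 65.2, 70.8 and 71.3 CPM in the 4 AA 5+3 mice, against 31.5, 35.95, 37.1, 44.6 and 46.55 CPM in the 5 AA vehicle mice. Every 5+3 mouse lay above every vehicle mouse, with a gap between the groups wider than the spread within the 5+3 mice. The log2 change was 0.78 ± 0.12 (SE; adjusted p = 0.000367, edgeR), rank 37 by p of all genes tested. It was called in each alternative and without any single mouse, with log2 changes of 0.71 to 0.85. Cad footprints were 166.7, 184.1, 203.2 and 251.9 CPM in AA 5+3 mice, against 120.4, 123.6, 141.9, 144.9 and 171.6 CPM in AA vehicle mice. The groups overlapped by 1 mouse, since the highest vehicle mouse lay above the lowest 5+3 mouse. Its log2 change was 0.52 ± 0.12 (adjusted p = 0.0101, edgeR), and without AA 5+3 replicate 3, the highest mouse, it was 0.40 with an adjusted p of 0.0603.

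Among the members not called on the AA diet, Dhodh and Ctps also had no overlap between groups, which makes 3 of 9 members with Tyms, beside 10.3% of all genes tested. Dhodh was at 16.4 to 18.5 CPM in AA 5+3 mice against 8.68 to 16.1 CPM in AA vehicle mice, with a log2 change of 0.39 ± 0.15 and an adjusted p of 0.12 in edgeR, on 22 to 113 reads per library. Ctps was at 47.8 to 51.2 CPM in AA 5+3 mice against 40.2 to 44.6 CPM in AA vehicle mice, with a log2 change of 0.22 ± 0.10 (adjusted p = 0.214, edgeR). Umps, Ctps2, Tk1, Dut and Uck2 had log2 changes between -0.09 and 0.22. For Dut, a thymidylate enzyme like Tyms, the 95% interval of the log2 change was -0.09 to 0.28. For Uck2 it was -0.09 to 0.27, so that changes of the size seen for Tyms lie outside both.

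In mRNA of the same mice no member was called on the AA diet, beside 0.0616% of the 21114 genes tested (13 genes), and no member had an unadjusted p under 0.05 in edgeR. DESeq2 called none of the 9 either. Tyms mRNA was 153.4 to 273.6 CPM in AA 5+3 mice against 142.7 to 225.4 CPM in AA vehicle mice, with overlapping groups and a log2 change of 0.32 (95% interval -0.15 to 0.79). Cad mRNA had a log2 change of 0.42 (95% interval -0.05 to 0.89). The median standard error of the 9 members' log2 changes was 0.24 in mRNA and 0.12 in footprints. Uck2 mRNA was at 105.5 to 131.9 CPM in AA 5+3 mice against 64.4 to 103.4 CPM in AA vehicle mice, with an adjusted p of 0.861 in edgeR. The share of all genes without overlap between groups was not counted in mRNA.

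**Figure D2:**
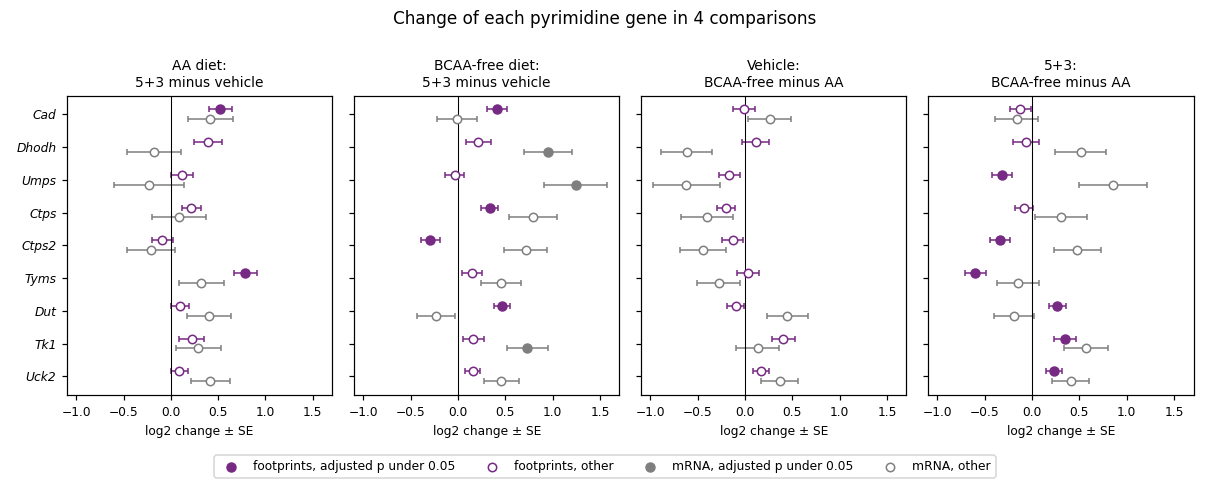
Log2 change ± SE of each gene in 4 comparisons, in footprints (purple) and mRNA (grey), with filled points for an adjusted p under 0.05 in edgeR. Tyms has the largest called footprint changes, 0.78 on the AA diet and -0.60 between diets under 5+3, and the 3 called mRNA changes all lie in the BCAA-free panel.

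Other genes of nucleotide supply were read from a list of 30 made with earlier results of these data known. On the AA diet, 4 of the 27 tested in footprints rose after 5+3 and none fell. Among them were Rrm2 (log2 change 0.79 ± 0.12) and Rrm1 (0.49 ± 0.09), the subunits of ribonucleotide reductase that makes deoxynucleotides, and Mthfd1 (0.54 ± 0.10), an enzyme of folate one-carbon metabolism. In each of these 3, all 5+3 mice lay above all vehicle mice. Of 24 S-phase and E2F genes, 5 rose and none fell: Fen1 (0.39 ± 0.09), Rfc4 (0.47 ± 0.11), Ccne1 (0.84 ± 0.21), Cdc6 (0.37 ± 0.09) and Uhrf1. The replicative helicase genes Mcm2 to Mcm7 were not among them. In mRNA none of either list was called on this diet. Footprints of monocyte and macrophage markers fell in the same comparison, 7 of 9 by the test.

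On the BCAA-free diet, 5+3 against vehicle called 4 members, with Cad called on both diets. Footprints of Cad, Ctps and Dut rose, and those of Ctps2 fell. Tyms, Dhodh, Umps, Tk1 and Uck2 were not called. The 4 of 9 called, 3 higher and 1 lower, stood beside 20.6% of all genes tested in footprints, and the members' median log2 change was 0.16, against -0.02 for all genes.

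Dut footprints, for the enzyme that makes dUMP from dUTP, were 66.3 CPM at the lowest, 73.3 at the median and 74.7 at the highest in the 7 BCAA-free 5+3 mice, against 45.1, 45.7, 52.8, 56.6 and 58.7 CPM in BCAA-free vehicle mice. The groups did not overlap. The log2 change was 0.46 ± 0.08 (adjusted p = 0.000464, edgeR). Cad footprints were 154.1 CPM at the lowest, 172.7 at the median and 218.9 at the highest in BCAA-free 5+3 mice, against 133.5, 135.0, 135.9, 137.8 and 151.3 CPM in BCAA-free vehicle mice. These groups did not overlap either (2 of 9 members, beside 8.06% of all genes tested), and the log2 change was 0.41 ± 0.11 (adjusted p = 0.00822, edgeR). The call for Cad held in all 12 fits that left out 1 mouse but was lost with the replicate block.

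For the CTP synthases, Ctps was called higher and Ctps2 lower on this diet, and the call for Ctps2 was the less stable. Ctps footprints were 40.5 to 56.4 CPM in BCAA-free 5+3 mice (median 44.6), against 31.8, 34.7, 35.9, 40.4 and 41.7 CPM in BCAA-free vehicle mice, a log2 change of 0.34 ± 0.09 (adjusted p = 0.011, edgeR). Ctps2 footprints were 25.1 to 35.3 CPM in BCAA-free 5+3 mice (median 30.1), against 34.1, 37.5, 37.6, 37.9 and 38.9 CPM in BCAA-free vehicle mice, a log2 change of -0.29 ± 0.10 (adjusted p = 0.0389). A single pair of mice broke the order for Ctps2. Its call was lost in 10 of 12 fits that left out 1 mouse, with adjusted p up to 0.0963, and also with median-ratio scaling, no filter, DESeq2, the replicate block, protein-coding rows or without the 4 mice that stood apart. That for Ctps held in all 12 such fits. Tyms footprints were 37.5 to 51.4 CPM in BCAA-free 5+3 mice against 31.9 to 45.9 CPM in BCAA-free vehicle mice, largely overlapping, with a log2 change of 0.15 (95% interval -0.06 to 0.36).

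In mRNA on the BCAA-free diet, Dhodh, Umps and Tk1 rose after 5+3, beside 8.56% of all genes tested. None of these 3 was called in footprints. Umps mRNA, for the enzyme that makes UMP, was 217.3 CPM at the lowest, 260 at the median and 580.9 at the highest in BCAA-free 5+3 mice, against 95.04, 99.9, 156.2, 182 and 196.2 CPM in BCAA-free vehicle mice. The log2 change was 1.24 ± 0.34 (adjusted p = 0.0285, edgeR). Umps footprints in the same mice had a log2 change of -0.04 (95% interval -0.23 to 0.16). Dhodh mRNA was 75.5 to 158.4 CPM in BCAA-free 5+3 mice against 37.3 to 84.8 CPM in BCAA-free vehicle mice (log2 change 0.95 ± 0.25, adjusted p = 0.0283). Tk1 mRNA was 83.5 to 149.4 CPM in BCAA-free 5+3 mice against 56.0 to 108.3 CPM in BCAA-free vehicle mice (0.73 ± 0.22, adjusted p = 0.0397). Ctps and Ctps2 mRNA had log2 changes of 0.79 and 0.71 and adjusted p of 0.0549 and 0.0522, just short of a call. Without a single mouse the call was lost in 6 of 12 fits for Dhodh, 6 for Umps and 9 for Tk1 (adjusted p up to 0.101), and with only the compared groups for Dhodh and Tk1. Dut mRNA had a log2 change of -0.23 ± 0.20, while Dut footprints were called higher.

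**Figure D3:**
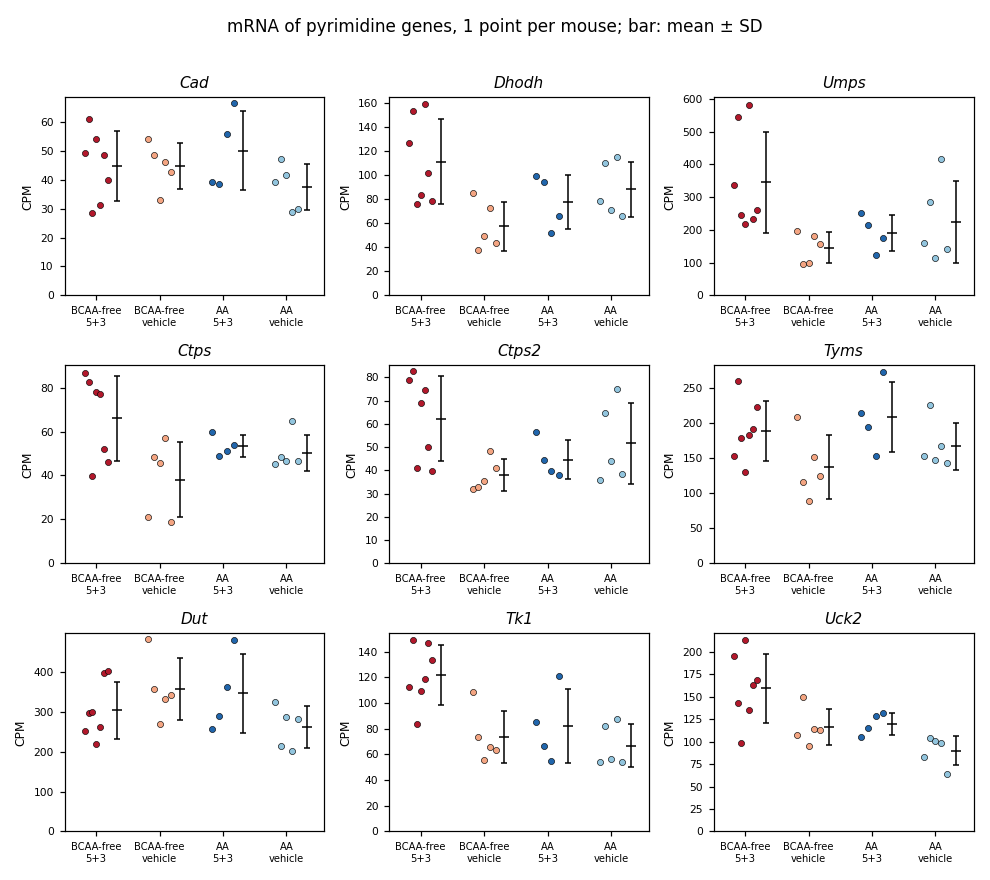
mRNA level in CPM of each of the 9 genes, with 1 point per mouse and bars for the group mean ± SD, in BCAA-free 5+3 (n = 7), BCAA-free vehicle (n = 5), AA 5+3 (n = 4) and AA vehicle (n = 5) mice. Umps lies at 217.3 CPM or above in every BCAA-free 5+3 mouse and at 196.2 CPM or below in every BCAA-free vehicle mouse, and its AA groups overlap.

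Of the 5 BCAA-free vehicle mice, 3 were among those whose mRNA libraries stood apart, and without these 3 and BCAA-free 5+3 replicate 7 none of the 9 members was called on this diet in either kind. That fit had 2 vehicle mice left and called 19 of 24387 genes in mRNA and 395 of 16545 in footprints. The footprint libraries of these 4 mice did not stand apart on their own first component, which held 28.6% of the variance. There BCAA-free vehicle replicates 1, 2 and 5 were at 6.33, -1.05 and 23.2, and replicates 3 and 4 at -9.7 and 12.3. BCAA-free 5+3 replicate 7 was at -38.6, within the range of its group (-48.2 to -24.5). Without the 4 mice the footprint log2 changes were 0.40 for Dut, 0.36 for Cad, 0.36 for Ctps and -0.24 for Ctps2, with adjusted p of 0.0583 to 0.386. In mRNA they were 1.39 for Umps, 0.98 for Dhodh and 1.03 for Tk1, with adjusted p of 0.233 to 0.257.

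Among the other nucleotide genes on the BCAA-free diet, 8 rose and 3 fell of 27 tested in footprints. Those with the smallest adjusted p were Rrm2 (0.89 ± 0.11), Shmt2 (0.70 ± 0.11), the mitochondrial serine hydroxymethyltransferase, Nme2 (0.50 ± 0.09), a nucleoside diphosphate kinase, and Rrm1 (0.42 ± 0.08). Nme2 is similar in sequence to its neighbour Nme1, so some reads could have been split between them, which was not tested. The 3 that fell were Cmpk2, Samhd1 and Uprt, and Samhd1, which breaks down dNTPs, had a log2 change of -0.62 ± 0.13. In mRNA 4 of 28 rose, among them Shmt2 (1.40 ± 0.27) and Rrm2 (1.46 ± 0.33), and Samhd1 fell. Of the 24 S-phase genes, 10 rose in footprints and none fell, led by Gins1 (0.46 ± 0.11), Mcm7 (0.34 ± 0.09), Cdc6 (0.33 ± 0.08) and Ccne2 (0.51 ± 0.14). In mRNA 5 rose: Fen1 (1.45 ± 0.32), Rfc4, Mcm2, Mcm6 and Cdc6. Footprints of 8 of 9 mature neutrophil markers, 6 of 9 monocyte and macrophage markers and all 5 red cell markers tested fell in the same comparison.

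The BCAA-free against the AA diet under vehicle called none of the 9 members in either kind. Beside this stood 2.04% of all genes in footprints and 0.00% in mRNA, where edgeR called no gene, 2363 genes had an unadjusted p under 0.05 and DESeq2 called 161. One member in each kind had an unadjusted p under 0.05: Tk1 in footprints and Dhodh in mRNA. DESeq2 called no member in either kind. Tk1 footprints were 31.7, 37.4, 44.3, 45.1 and 55.5 CPM in BCAA-free vehicle mice, against 27.2, 29.6, 32.35, 36.3 and 36.7 CPM in AA vehicle mice, a log2 change of 0.41 ± 0.12 (adjusted p = 0.0765). For Tyms the footprint change between diets was 0.03 (95% interval -0.20 to 0.27), and for Cad -0.01 (-0.24 to 0.21). From the wider lists, Samhd1 (-0.60 ± 0.14) and Ccne2 (-0.55 ± 0.15) were the genes called in footprints, both lower on the BCAA-free diet.

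The diets were also compared under 5+3. Footprints of Tyms, Umps and Ctps2 were lower on the BCAA-free diet, and those of Tk1, Dut and Uck2 were higher. The 6 of 9 called, 3 in each direction, stood beside 28.3% of all genes tested. The members' median was -0.08 on the log2 scale, against 0.00 for all genes. The 5+3 groups are those of the preceding comparisons, so these values share mice with them.

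Tyms footprints were 37.5 CPM at the lowest, 43.8 at the median and 51.4 at the highest in BCAA-free 5+3 mice, against 61.6, 65.2, 70.8 and 71.3 CPM in AA 5+3 mice. The groups did not overlap, and the level was 1.52-fold lower on the BCAA-free diet (log2 change -0.60 ± 0.11, adjusted p = 0.000326, edgeR). It remained called without any single mouse and in all other alternatives, with log2 changes of -0.50 to -0.64. Tyms mRNA in these mice was 130.7 to 259.8 CPM in BCAA-free 5+3 mice against 153.4 to 273.6 CPM in AA 5+3 mice, a log2 change of -0.15 (95% interval -0.58 to 0.29).

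The salvage kinases and Dut went the other way, by less. Tk1 footprints were 41.8 to 53.6 CPM in BCAA-free 5+3 mice, against 34.9, 35.3, 39.9 and 40.1 CPM in AA 5+3 mice (log2 change 0.35 ± 0.12, adjusted p = 0.0324). Dut footprints were 66.3 to 74.7 CPM in BCAA-free 5+3 mice, against 55.8, 57.3, 59.9 and 63.9 CPM in AA 5+3 mice (0.27 ± 0.09, adjusted p = 0.0232). Uck2 footprints were 65.5 to 78.2 CPM in BCAA-free 5+3 mice, against 53.9 to 62.5 CPM in AA 5+3 mice (0.23 ± 0.09, adjusted p = 0.0434). None of these 3 genes overlapped between the groups, and with Tyms that held for 4 of 9 members, beside 17.5% of all genes tested. Umps footprints, at 63.6 to 94.7 CPM in BCAA-free 5+3 mice against 81.5 to 101 CPM in AA 5+3 mice, overlapped (-0.32 ± 0.11, adjusted p = 0.0284). Ctps2 footprints were 25.1 to 35.3 CPM in BCAA-free 5+3 mice against 32.1 to 44.1 CPM in AA 5+3 mice (-0.34 ± 0.11, adjusted p = 0.0203). Of these 5 calls, each was lost without at least 1 mouse, Dut in 1 of 11 such fits (AA 5+3 replicate 2, adjusted p = 0.0583) and the others in 4 or 5 of 11. All 5 were lost with no filter on low counts. The calls for Umps and Ctps2 were also lost with protein-coding rows or without the 4 mice that stood apart. Cad, Dhodh and Ctps had footprint changes of -0.12, -0.06 and -0.08 between diets under 5+3.

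In mRNA no member was called between the diets under 5+3, beside 1.24% of all genes, and DESeq2 called none. Umps, Tk1 and Uck2 had an unadjusted p under 0.05, with log2 changes of 0.85 ± 0.36, 0.57 ± 0.23 and 0.41 ± 0.20. For Umps, mRNA was thus higher in mean on the BCAA-free diet, at 345.2 ± 153.5 CPM in BCAA-free 5+3 mice (SD, n = 7) and 190.9 ± 54.8 CPM in AA 5+3 mice (n = 4), while its footprints were called lower.

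From the wider nucleotide list, 4 genes were higher and 5 lower of the 27 tested in footprints on the BCAA-free diet under 5+3, a share near the 28.3% of all genes. Cmpk2 (-1.55 ± 0.22), a mitochondrial UMP-CMP kinase at 5.45 CPM in BCAA-free 5+3 mice and 16.1 CPM in AA 5+3 mice, had the smallest adjusted p. Samhd1 (-0.90 ± 0.14) and Mthfd1 (-0.47 ± 0.10) were lower as well, and Nt5c2 (0.52 ± 0.11), a cytosolic nucleotidase, was higher. Of the S-phase genes 1 was higher and 9 lower. Cdc45, at 43.4 CPM in BCAA-free 5+3 mice and 72.9 CPM in AA 5+3 mice, had a log2 change of -0.74 ± 0.13, and Mcm5 (-0.34 ± 0.08) and Cdc6 (-0.30 ± 0.09) were lower too. Gins1 (0.36 ± 0.11) was the one that was higher. Footprints of 5 of 9 mature neutrophil markers and of all 5 red cell markers tested were lower in the same comparison. Of the 10 genes listed as leukaemia identity markers, Mpo (-0.60 ± 0.14), Itgam (-0.92 ± 0.18) and Myb (-0.30 ± 0.08) were lower and Kit (0.74 ± 0.20) was higher. Mpo and Itgam are general myeloid genes and not particular to the leukaemia. Of 9 monocyte and macrophage markers 2 were lower and 1 higher. The part of these cell types in the changes of Tyms, Umps and Ctps2 was not tested.

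The interaction, the 5+3 change on the BCAA-free diet minus that on the AA diet, was called for 1 member in footprints, beside 7.09% of all genes. That member was Tyms, at -0.64 ± 0.16 (adjusted p = 0.0208, edgeR), from log2 changes of 0.15 on the BCAA-free diet and 0.78 on the AA diet. It lost the call with a replicate block (adjusted p = 0.0801), without the 4 mice that stood apart in mRNA (-0.51, adjusted p = 0.177) and without AA 5+3 replicate 1 (adjusted p = 0.0557). For Cad, called on both diets, the interaction was -0.11 (95% interval -0.42 to 0.21). For Dut it was 0.36 ± 0.12 (adjusted p = 0.0719), and for Ctps2 -0.21 ± 0.15. The other members lay between -0.18 and 0.12 in footprints. In mRNA no member's interaction was called, beside 0.0758% of all genes, and DESeq2 called none. Dhodh, Umps, Ctps2 and Dut had an unadjusted p under 0.05, at 1.13, 1.47, 0.92 and -0.64.

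Footprints set against mRNA of the same mouse give translational efficiency, the ratio of both CPM values. As a log2 ratio averaged over the 21 mice, it was 1.94 ± 0.37 (SD) for Cad, at percentile 80 of the 12097 genes tested. Ctps (-0.20 ± 0.48) and Ctps2 (-0.43 ± 0.59) followed. Dhodh (-2.38 ± 0.60), Dut (-2.34 ± 0.42) and Tyms (-1.90 ± 0.40) were lowest among the 9, at percentiles 16.7, 17.3 and 25.2. With the counts of its pseudogene copy added, described further on, the Tyms ratio was -1.37 ± 0.39, close to that of Umps (-1.36 ± 0.73). The ratio also carries the difference in how the libraries cover a gene: mRNA reads can fall along the whole transcript and footprints mainly along the coding part. For that reason it is compared between groups and its order across genes is a description.

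**Figure D4:**
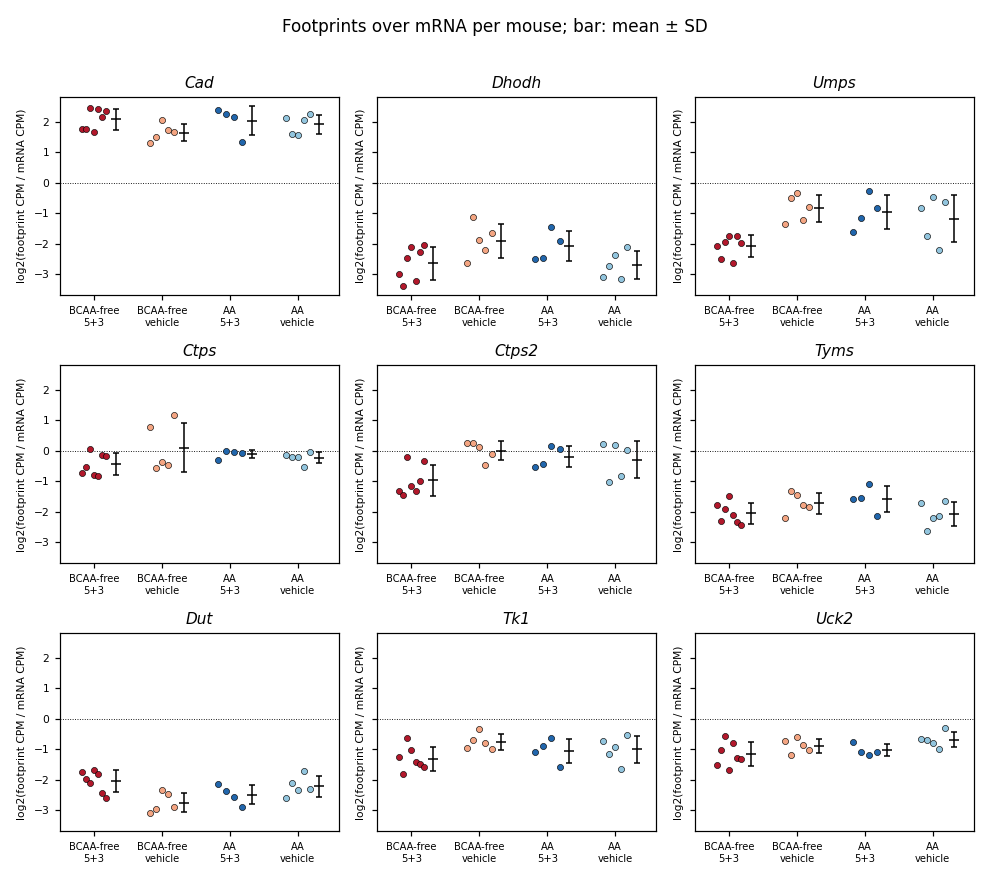
Log2 ratio of footprint CPM to mRNA CPM of each gene, with 1 point per mouse and bars for the group mean ± SD, in BCAA-free 5+3 (n = 7), BCAA-free vehicle (n = 5), AA 5+3 (n = 4) and AA vehicle (n = 5) mice. All Cad points lie above 1.3, and the Umps points of BCAA-free 5+3 mice (-2.65 to -1.74) all lie below those of BCAA-free vehicle mice (-1.34 to -0.34).

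Translational efficiency of 3 members was called for 5+3 against vehicle on the BCAA-free diet, beside 7.45% of all genes. Umps and Ctps2 fell and Dut rose. For Umps the log2 ratio was -2.65 at the lowest, -1.97 at the median and -1.74 at the highest in BCAA-free 5+3 mice, against -1.34, -1.24, -0.80, -0.49 and -0.34 in BCAA-free vehicle mice. The fitted change was -1.13 ± 0.29 (adjusted p = 0.0326, edgeR), against a median of -0.11 over all genes. Ctps2 had a change of -0.86 ± 0.26 (adjusted p = 0.0475). For Dut the log2 ratio was -2.60 to -1.67 in BCAA-free 5+3 mice (median -1.99), against -3.08, -2.95, -2.91, -2.48 and -2.34 in BCAA-free vehicle mice, with overlap and a change of 0.84 ± 0.22 (adjusted p = 0.036). For Umps the mRNA was called higher with footprints at a change of -0.04, and for Dut the footprints were called higher with mRNA at a change of -0.23. Each of these 3 calls was lost without the 4 mice that stood apart (adjusted p of 0.331 to 0.394) and in 7 to 9 of 12 fits without a single mouse.

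No member was called for translational efficiency in the other 4 comparisons. Beside this stood 0.00% of all genes for 5+3 on the AA diet, where edgeR called none, 333 genes had an unadjusted p under 0.05 and DESeq2 called 1. It was 0.00% for the diets under vehicle, with 1083 genes at an unadjusted p under 0.05 and none called by DESeq2. For the diets under 5+3 and for the interaction it was 0.00827% each, which is 1 gene. DESeq2 called none of the 9 in any of these 4, and 0, 2, 3 and 4 members had an unadjusted p under 0.05. Tyms had changes of 0.46 ± 0.26 for 5+3 on the AA diet and -0.35 ± 0.24 for the BCAA-free against the AA diet under 5+3. Umps under 5+3 was at -1.01 ± 0.31 between the diets, with an adjusted p of 0.447 in edgeR.

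Tyms has a processed copy, the pseudogene Tyms-ps on another chromosome, and the tables give it counts of its own. In footprints Tyms-ps held 26.8% to 36.4% of the counts summed over both, while in mRNA it held at most 0.264%. It averaged 29.3 ± 2.45 CPM in footprints of AA 5+3 mice (SD, n = 4) and 18.6 ± 2.76 CPM in AA vehicle mice (n = 5). In BCAA-free 5+3 mice it averaged 21.1 ± 2.30 CPM (n = 7) and in BCAA-free vehicle mice 16.8 ± 2.61 CPM (n = 5). Reads of the gene and the copy could have been split in counting, and how reads that match both were treated is not given. The level of Tyms footprints is thus uncertain by an amount that these counts do not bound.

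Its changes had the same sign as those of Tyms in the comparisons where Tyms was called. Tyms-ps footprints rose after 5+3 on the AA diet (0.64 ± 0.13, adjusted p = 0.00336) and on the BCAA-free diet (0.34 ± 0.11, adjusted p = 0.0362), and were lower on the BCAA-free than on the AA diet under 5+3 (-0.47 ± 0.12, adjusted p = 0.00382). Its interaction of -0.30 ± 0.17 was not called (adjusted p = 0.291). With the counts of both summed, an alternative chosen after seeing the data, footprints were 92.2 to 102.6 CPM in AA 5+3 mice against 49.6 to 67.7 CPM in AA vehicle mice (log2 change 0.74, adjusted p = 0.000327). The sum's interaction was -0.54 (adjusted p = 0.0319). The call for Tyms after 5+3 on the AA diet, between the diets under 5+3 and for the interaction thus held with the copy included.

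**Figure D5:**
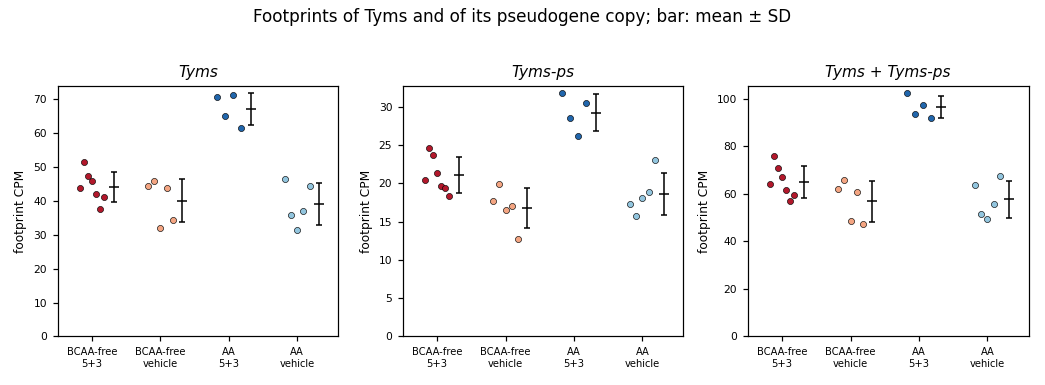
Footprint CPM of Tyms, of the pseudogene Tyms-ps and of both summed, with 1 point per mouse and bars for the group mean ± SD, in BCAA-free 5+3 (n = 7), BCAA-free vehicle (n = 5), AA 5+3 (n = 4) and AA vehicle (n = 5) mice. In each panel the 4 AA 5+3 mice stand highest, at 92.2 CPM or above for the sum.

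Other members share part of their locus with other genes, and the strand setting of the counting is not given in the sources used here. On GRCm38.p6, Cad (chr5:31054620-31078479) overlaps Atraid, Tk1 (chr11:117815519-117826087) overlaps Afmid, Ctps2 overlaps S100g and a pseudogene, and Uck2 overlaps a pseudogene and a long non-coding RNA. Atraid had a mean of 3412 mRNA reads but 44.5 footprint reads per library, and Afmid 194.6 and 1.90. Tyms (chr5:30038546-30073645), Dut (chr2:125247248-125259049), Umps, Ctps and Dhodh overlap no annotated gene.

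For each member, the genes with the most similar footprint profile over the 21 libraries were found by the mean absolute difference of log2 CPM after centring, among 9198 genes of at least 10 CPM. Cad was most like Lonp1 (0.096) and Eftud2 (0.107), where the median over all genes was 0.301. Tyms was most like Ndc1 (0.122, median 0.331) and Gm5648. Tk1 was most like Mbnl3 (0.124) and Gm3756. Dut was closest to Pa2g4 (0.078) and Ranbp1 (0.083), Ctps to Hnrnpc (0.073) and Elac2 (0.080), and Uck2 to Eif4a3 (0.081) and Eif5a (0.084). Umps was closest to G3bp1 (0.089) and Pcbp1 (0.093), Ctps2 to Bod1l (0.090) and Fuca2 (0.095), and Dhodh, the member with the fewest reads, to Xpnpep1 (0.136) and Mrps31 (0.138). These differences describe the profiles over these libraries, and the groups and library preparation are shared by all genes compared.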

How the data were processed

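Sorted leukaemia cells of 21 mice gave 42 libraries, 1 of mRNA and 1 of footprints per mouse. The authors deposited 2 tables of whole-number counts per gene, not normalized. Builds GRCm38 and mm10 and the tools featureCounts, STAR, Bowtie2, cutadapt and SAMtools are named in the submitters' processing notes. Versions, roles, annotation and strandedness were not given in the sources used here. Of 55487 identifiers, 55141 (99.4%) matched a symbol.

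Counts were tested in R 4.3.3 with edgeR 4.0.16 (TMM scaling, filterByExpr with minimum count 10 and total 15, robust quasi-likelihood test, Benjamini-Hochberg adjustment over all genes, threshold 0.05), with the 4 groups in 1 fit per kind. Translational efficiency was the interaction of library kind with group over all 42 libraries, with the mouse, named in the labels, as a block. Within its group, the mRNA library of a mouse correlated best with its own footprint library in 12 of 21 mice (median r = 0.0811 across genes). SE is the log2 change divided by the root of F, and the intervals given as 95% are the log2 change ± 1.96 SE. This normal quantile makes them somewhat narrower than the test, so an interval can leave out 0 with an unadjusted p above 0.05. P-values measure the spread between libraries of different mice, and precision is also limited by read number. With 1 library of a kind per mouse, the mouse and its sort and library preparation cannot be told apart in that spread. All 47 pairs of libraries of a group differed beyond sampling noise in both kinds.

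Members and lists were chosen with earlier results of these data known. All 9 members were named. From the lists of other nucleotide and S-phase genes, up to 4 with the smallest adjusted p per comparison were named by rule, apart from 1 gene not reported here, and Uhrf1, Cmpk2, Samhd1, Uprt, Nme1 and Cdc6 were also named where outside it, after their values were seen. Alternatives were median-ratio scaling, no filter, DESeq2 1.42.0, only the compared groups, a replicate block, leaving out the 4 mice that stood apart, protein-coding rows and each mouse left out, with Tyms summed with Tyms-ps added after seeing the data. The test was also run on simulated counts with the same dispersion for every gene and no mice that stood apart. That setting differs from these data, so the run does not measure the accuracy of the test here.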

Additional observations from a re-analysis of the deposited data

Results flagged for a closer look

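Of 72 groups of 4 to 7 mice checked for a mouse far from the others, 4 had one, and chance gives about 1 in 20. Ctps mRNA of AA vehicle replicate 4 was 64.6 CPM, with the next mouse at 48.5 CPM. In footprints, BCAA-free vehicle replicate 4 was far from its group for Cad (151.3 CPM, next 137.8 CPM) and for Ctps2 (34.1 CPM, next 37.5 CPM). Uck2 footprints of BCAA-free 5+3 replicate 5 were 78.2 CPM, with the next mouse at 70.0 CPM.

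The 5+3 change of Tyms footprints differed between the diets by a test of the difference itself, at -0.64 on the log2 scale (BCAA-free minus AA, edgeR interaction). It was not called with the replicate block (adjusted p = 0.0801), without the 4 mice that stood apart (0.177) or without AA 5+3 replicate 1 (0.0557).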

How the results depend on the processing

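Counts of the 9 members called were compared over the alternatives. For 5+3 on the BCAA-free diet in mRNA the count of 3 became 5 with DESeq2, the replicate block or protein-coding rows, 1 with only the compared groups and 0 without the 4 mice apart. In footprints the 4 became 2 with the block and 0 without the 4 mice. For the diets under 5+3 in footprints the 6 became 1 with no filter on low counts and 2 with the block. Umps and Ctps2 were also lost with protein-coding rows or without the 4 mice, and Umps with only the compared groups. The footprint interaction count of 1 became 2 with DESeq2 or protein-coding rows and 0 with the block (Tyms -0.56, adjusted p = 0.0801) or without the 4 mice. For translational efficiency on the BCAA-free diet the 3 became 1 with no filter or only the compared groups and 0 without the 4 mice. The cause was not tested. Without the mouse block the same 3 translational efficiency calls were made.

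Leaving out 1 mouse gave 0 to 6 calls for 5+3 on the BCAA-free diet in mRNA, 3 to 4 in footprints and 0 to 3 in translational efficiency. In footprints it gave 1 to 2 for 5+3 on the AA diet, 0 to 1 for the diets under vehicle, 2 to 6 for the diets under 5+3 and 0 to 2 for the interaction. The other comparisons stayed at 0 members. No result that passed in either fit changed sign. Single-gene values were counted only for results called in the main fit or changing side in at least 1 alternative. Of these values, 369 kept their side of the threshold, 114 lost the call and 19 gained it.

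Replicate numbers did not pair the mice: same-numbered libraries of different groups had a median r of 0.0341 in mRNA and 0.00199 in footprints, and 6 and 5 of 21 correlated best with their own number. Over all genes, 5+3 on the BCAA-free diet called 1807 in mRNA and 19 without the 4 mice. Dhodh, the member with the fewest footprint reads, had 22 to 122 per library.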
